A study of Homo sapiens with 18 samples.

Results

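The membrane transporters described here are the ATP-binding cassette (ABC) proteins of subfamilies A to G, the SLC22A carriers of organic cations, anions and zwitterions, and the SLCO carriers, also called OATPs. Members were the array rows whose printed gene name begins with one of these family names followed by a number. This gave 144 of 48803 rows and 77 genes of the 38071 names in the table. Names of the SLC47A family were searched too and matched 0 rows. The cells were HK-2, an immortalised line of human proximal tubule epithelium, grown in 18 flasks with 1 Illumina HumanWG-6 bead array per flask. The 6 groups of 3 flasks were TGF-beta1 (2 ng/ml) with C-peptide (5 nM) for 48 h, TGF-beta1 (2 ng/ml) for 48 h, C-peptide (5 nM) for 48 h, no supplement for 48 h (48 h control), C-peptide (5 nM) for 18 h, and no supplement for 18 h (18 h control). Every flask, controls included, had been kept in low-glucose medium and deprived of serum overnight before the agents were added, and all incubations ended at the same time. TGF-beta1 is a growth factor that drives fibrosis, C-peptide is the fragment cut from proinsulin, and the study set the response to each alone beside the response to both. HK-2 is a single cell line, and nothing states that the flasks came from separate cultures, so p-values measure the spread between these flasks.

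ABC proteins use ATP to move lipids, conjugates, drugs or peptides across membranes, mostly outward from the cytosol. SLC22A and SLCO carriers exchange or co-transport charged organic compounds. In the kidney some of them load the proximal tubule cell from the blood side and others lie on its apical side, while pumps such as P-glycoprotein (ABCB1) and MRP4 (ABCC4) empty it into the tubule lumen. Together they set how the tubule secretes drugs, urate, bile acids and conjugated waste.

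Numbers of detected probes were similar across flasks. Mean signal ran from 215.9 to 343.7 intensity units, 14580 to 15818 probes were detected per array at a detection p under 0.01, and the median SD between replicates ran from 0.09 to 0.15 on the log2 scale. With 3 arrays in a group, precision is set by so few flasks. The array numbers in the column headers form 3 consecutive sets of 6: the 48 h controls with TGF-beta1, C-peptide at 48 h with both agents, and all 18 h arrays. Mean signal before normalization was 302.7 to 343.7 in the set of the 48 h controls. It was 216.7 to 280.7 in the set of C-peptide at 48 h and 215.9 to 251.2 in the 18 h set. C-peptide at 48 h therefore cannot be told apart from the array set, whereas TGF-beta1 against control, both agents against C-peptide, and C-peptide against control at 18 h each lie within a set. C-peptide 18 h replicate 3 stood apart from the other 18 h arrays, and transporter results that rest on it are given with and without it. The proximal tubule label was checked against 21 marker genes. Of these 10 were tested and 11 were not, among them LRP2, CUBN and AQP1, which take up filtered proteins and water in the tubule.

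The transporter genes were detected in part. A gene was tested when a row of it was detected on at least 3 of the 18 arrays, and 38 of the 77 genes passed (49.4%, against 32.7% of all names in the table). A further 35 genes were detected on no array and 4 on 1 or 2 arrays, while 26 of the 77 were detected on all 18. The lowest row to pass, for ABCC6, was detected on 6 arrays, and the highest row to miss, for ABCA12, on 2. ABCC11, ABCC12 and ABCD4 were detected on a single array. Counts of changed genes given here refer to the 38 tested genes, not to all 77, and a gene that passed mainly through arrays of 1 group was bound to differ.

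Most classical uptake carriers of the proximal tubule were not detected on these arrays. Of 19 SLC22A genes 7 passed (36.8%, against 32.7% of all names in the table) and 12 were detected on no array. The undetected genes included SLC22A2 (OCT2), the basolateral organic cation carrier of human kidney, SLC22A6 and SLC22A8 (OAT1 and OAT3), the basolateral organic anion exchangers, SLC22A11 (OAT4) and SLC22A12 (URAT1), the apical urate exchanger. SLC22A7, SLC22A9, SLC22A10, SLC22A13, SLC22A14 and SLC22A16 were likewise detected on no array. Of 11 SLCO genes 4 passed (36.4%), namely SLCO2A1, SLCO3A1, SLCO4A1 and SLCO4C1, and all 4 were detected on all 18 arrays. The liver-type carriers SLCO1B1 and SLCO1B3 were detected on no array, as were SLCO1A2, SLCO1C1, SLCO2B1, SLCO5A1 and SLCO6A1.

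Among the ABC genes 27 of 47 passed (57.4%). All members of ABCE (1 gene) and ABCF (3 genes), which lack membrane domains and act on ribosomes and translation, passed. The counts were 7 of 13 for ABCA, 6 of 9 for ABCB, 6 of 12 for ABCC, 2 of 4 for ABCD and 2 of 5 for ABCG. The efflux pumps ABCC2 (MRP2) and ABCG2 (BCRP), known on the apical membrane of the proximal tubule, were detected on no array, as were the bile salt pump ABCB11 and the phospholipid flippase ABCB4. ABCA5, ABCA6, ABCA8, ABCA9, ABCA13, ABCB5, ABCC8, ABCC9, ABCD2, ABCG4, ABCG8 and the pseudogene ABCC13 were also detected on no array. A gene not detected on these arrays may still be expressed below what its probe can show. ABCA11 in the table is now listed as a transcribed pseudogene (ABCA11P), SLC22A18 as SLC67A1, and SLC22A18AS as the long noncoding RNA SLC67A1-AS, and the printed names of the table are kept here.

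**Figure D1:**
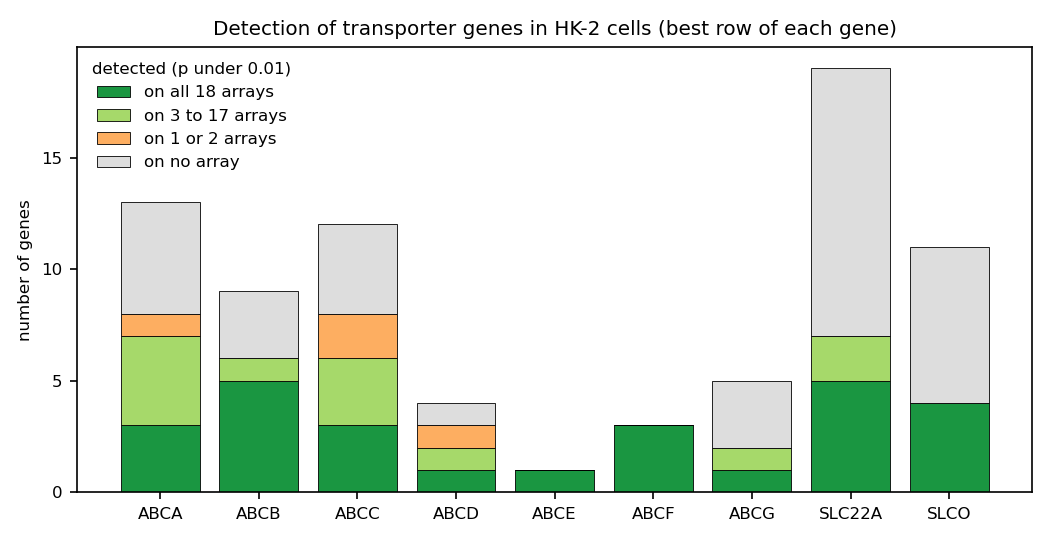
Number of genes per family (vertical axis) by how many of the 18 arrays detected the gene's best row at a detection p under 0.01. All 4 tested SLCO genes were detected on all 18 arrays, whereas 12 of 19 SLC22A genes and 7 of 11 SLCO genes were detected on no array.

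TGF-beta1 for 48 h moved transporter transcripts in opposite directions. The prostaglandin carrier SLCO2A1 rose by 3.76 on the log2 scale, ABCA1 by 1.37 and SLC22A4 by 1.23, while the efflux pump ABCB1 fell by 2.51 and the anion pump ABCC4 fell by 1.39. Of 38 genes tested 8 rose, 12 fell and 18 did not pass an adjusted p of 0.05 (limma, Benjamini-Hochberg over all 12468 genes). The share called, 52.6%, stood beside 45.1% of all genes tested, with 21.1% of members higher (21.9% of all genes) and 31.6% lower (23.2% of all genes). The median change of the members was 0.01, against -0.01 over all genes, and the median absolute change was 0.30, against 0.25. Of the 18 genes that did not pass (lowest adjusted p = 0.113), the 17 detected on at least 1 array of each group differed by -0.11 to 0.29. Of the 20 calls 17 held in every alternative setting that tested the gene and in each fit that left out 1 array. SLC22A3, among the 17, was not tested where a probe had to be detected on all 3 arrays of a group. It passed the detection rule only through arrays without TGF-beta1, so it was bound to differ. These are levels in the RNA of a whole flask, in which fewer cells making a transcript and less of it per cell cannot be told apart.

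The carrier with the widest change was SLCO2A1, which takes prostaglandins up into cells for breakdown. Its normalised intensity (log2) was 12.40, 12.31 and 12.36 with TGF-beta1, against 8.63, 8.61 and 8.57 in the 48 h controls. The groups were far apart and the replicates lay within 0.1 of each other. The rise had an SE of 0.37 and an adjusted p of 6.35e-08 (limma, n = 3 arrays per group), an SE that the model shares with the more variable 18 h arrays. In cells given C-peptide as well, the values were 11.96, 11.77 and 12.03 with both agents, against 8.93, 8.60 and 8.29 with C-peptide alone, a rise of 3.32 (SE 0.37).

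SLCO3A1, a broadly expressed carrier of prostaglandins and thyroid hormone, measured 7.80, 7.89 and 7.72 with TGF-beta1, against 6.97, 7.03 and 7.24 in controls, a rise of 0.73 (SE 0.16). With both agents it differed by 0.38 from C-peptide alone and did not pass on the row that stands for it, whereas its second row, at 0.40, did (adjusted p = 0.0391, limma over all kept probes). SLCO4C1, the digoxin and thyroid hormone carrier of the basolateral membrane of kidney tubules, moved the other way. Its values were 8.27, 8.28 and 8.25 with TGF-beta1, against 8.93, 8.93 and 9.03 in controls, without overlap, and it fell by 0.70 (SE 0.09). SLCO4A1, also a thyroid hormone carrier, differed by 0.02 and its groups overlapped.

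In the SLC22A family 1 gene rose and 5 fell of 7 tested. SLC22A4 (OCTN1), the carrier of the antioxidant ergothioneine, measured 7.31, 6.94 and 7.44 with TGF-beta1, against 6.11, 5.74 and 6.16 in controls. Every TGF-beta1 array lay above every control, and the rise was 1.23 (SE 0.36, adjusted p = 0.00807, limma). A second kept row of the gene gave 1.13. Its close relative SLC22A5 (OCTN2), which brings carnitine into the cell, went the opposite way by a small margin, at 6.99, 7.01 and 7.06 with TGF-beta1, against 7.22, 7.30 and 7.31 in controls. It fell by 0.26 (SE 0.09), and this call was lost in 6 of 15 alternatives, with adjusted p-values from 0.017 to 0.106.

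SLC22A15, a carrier of zwitterions, fell by 0.66 (SE 0.16), to 5.64, 5.71 and 5.70 with TGF-beta1, against 6.45, 6.32 and 6.27 in controls. SLC22A3 (OCT3), an organic cation and monoamine carrier, was at the edge of detection. It was well above background on 0 of 3 arrays with TGF-beta1 and on 2 of 3 controls. SLC22A3 passed the detection rule only through arrays without TGF-beta1, so it was bound to differ and its call is not taken as support. Its level was at least 1.06-fold lower with TGF-beta1. This bound sets the mean of the control arrays against the lowest detectable signal on the TGF-beta1 arrays or the probe's own signal, whichever was higher. SLC22A18, in the imprinted region of chromosome 11, fell by 0.46 (SE 0.12) and its antisense partner SLC22A18AS fell by 0.59 (SE 0.12). Their values were 7.52, 7.66 and 7.57 with TGF-beta1, against 7.99, 8.12 and 8.01 in controls for SLC22A18, and 6.59, 6.39 and 6.23 with TGF-beta1, against 6.98, 7.07 and 6.93 in controls for SLC22A18AS. SLC22A17, a receptor for lipocalin, differed by 0.17 and did not pass.

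ABCB1, or P-glycoprotein, which expels drugs and steroids across the apical membrane, measured 8.14, 8.16 and 8.02 with TGF-beta1, against 10.60, 10.40 and 10.84 in the 48 h controls. It fell by 2.51 (SE 0.13, adjusted p = 3.17e-12, limma), and the second kept row gave -2.54. ABCC4 (MRP4), the apical pump for urate, cyclic nucleotides and organic anions, measured 7.96, 8.12 and 8.17 with TGF-beta1, against 9.56, 9.38 and 9.49 in controls. It fell by 1.39 (SE 0.11), and by 1.20 on its second row. ABCC3 (MRP3), a basolateral pump of glucuronides and bile salts, fell by 0.98 (SE 0.13), to 9.28, 9.33 and 9.08 with TGF-beta1, against 10.28, 10.09 and 10.28 in controls.

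Of the 6 ABCC genes tested 0 rose and 4 fell. ABCC1 (MRP1), which exports glutathione conjugates, was dim, at 5.47, 5.25 and 5.65 with TGF-beta1, where 2 of 3 arrays detected it, against 5.89, 5.89 and 5.88 in controls. It fell by 0.43 (SE 0.12). ABCC5 (MRP5), an exporter of cyclic nucleotides, fell by 0.32 on the row that stands for it (adjusted p = 0.0357, limma), but its second kept row differed by 0.02, and the call was lost in 8 of 15 alternatives (adjusted p from 0.00425 to 0.169). ABCC10 differed by -0.02. ABCC6, mutated in pseudoxanthoma elasticum, was well above background on 0 of 3 arrays with TGF-beta1 and on 1 of 3 controls, did not pass, and is given no fold.

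Transporters of lipids divided. ABCA1, which loads cholesterol and phospholipid onto apolipoprotein A-I, measured 12.80, 12.77 and 12.75 with TGF-beta1, against 11.45, 11.48 and 11.29 in controls, and rose by 1.37 (SE 0.10). ABCA7, a phospholipid transporter related to ABCA1, fell by 0.99 (SE 0.10), to 7.10, 7.22 and 7.22 with TGF-beta1, against 8.08, 8.12 and 8.31 in controls. The groups of each gene were fully apart. The other 5 ABCA genes tested (ABCA2, ABCA3, ABCA4, ABCA10 and ABCA11) did not pass, and neither did the sterol transporters ABCG1 and ABCG5 or the peroxisomal fatty acid transporter ABCD3. ABCG1, which passes cholesterol on to lipoproteins, differed by -0.11 with overlapping groups.

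Members of the mitochondrial and intracellular ABCB group and the soluble ABCE and ABCF proteins rose or did not pass. ABCB8, of the inner mitochondrial membrane, measured 6.02, 6.43 and 6.39 with TGF-beta1, against 5.50, 5.49 and 5.59 in controls, 1 of which did not detect it, and rose by 0.75 (SE 0.17). ABCB6, a porphyrin transporter, rose by 0.47 (SE 0.15, adjusted p = 0.0146, limma). Its call was lost without 48 h control replicate 2 (adjusted p = 0.074). ABCB10, a mitochondrial transporter needed for haem synthesis, and the lysosomal peptide transporter ABCB9 did not pass. ABCE1, which splits ribosomes after termination, measured 10.03, 10.02 and 10.11 with TGF-beta1, against 9.44, 9.40 and 9.52 in controls, a rise of 0.60 (SE 0.09). ABCF2 rose by 0.42 (SE 0.09), while ABCF1 and ABCF3, which act in translation, differed by -0.09 and 0.22.

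**Figure D2:**
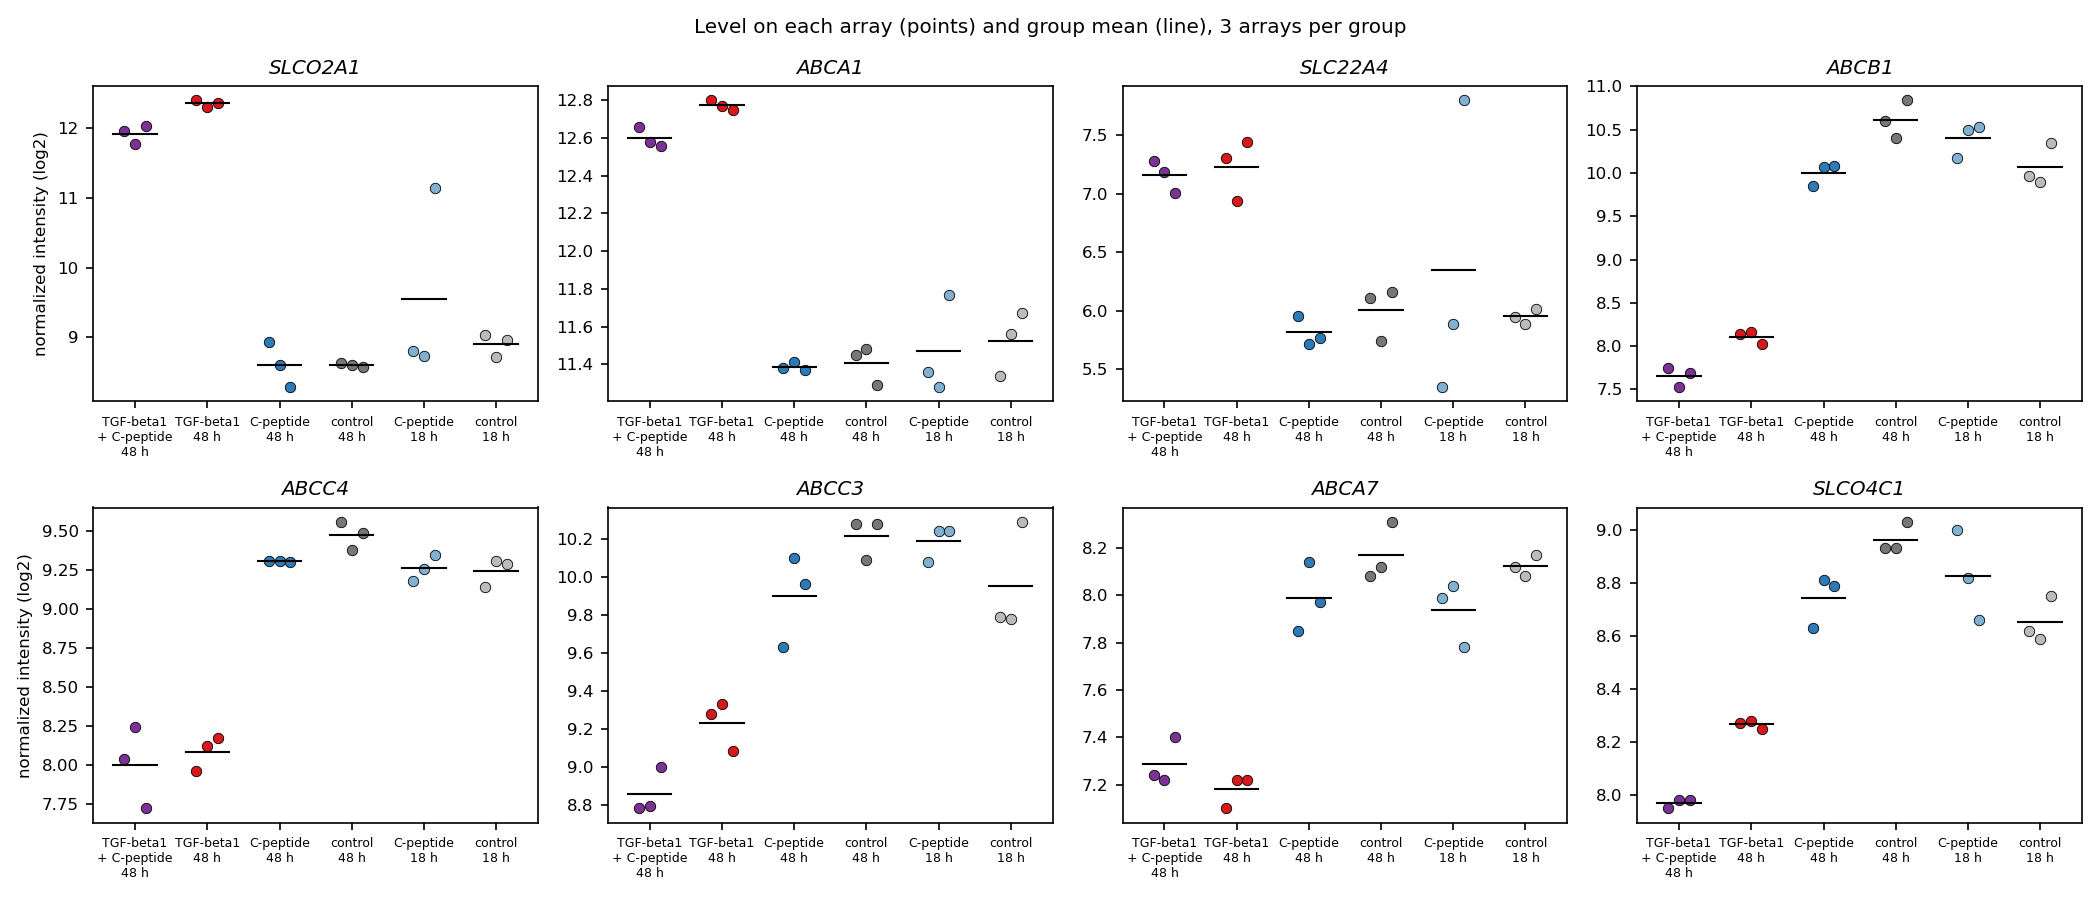
Normalised intensity (log2, vertical axis, each panel with its own range) of 8 transporter genes on each array (points) with the mean of each group of 3 (lines). SLCO2A1, ABCA1 and SLC22A4 are higher, and ABCB1, ABCC4, ABCC3, ABCA7 and SLCO4C1 lower, on every array with TGF-beta1 than on every 48 h array without it, and C-peptide 18 h replicate 3 lies above the other 18 h arrays for SLCO2A1 at 11.14 and SLC22A4 at 7.80.

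The TGF-beta1 changes were also measured in cells that received C-peptide. This comparison shares no array with the one above. With both agents against C-peptide alone 8 members rose and 9 fell (43% of all genes were called, 21.3% higher and 21.7% lower). Of the 20 genes called for TGF-beta1 alone 15 were called here in the same direction (75.0% of the 20 and 88.2% of the 17), 0 were called in the opposite direction, and all 20 had the same sign. Over all genes tested 4419 were called in the same direction in both comparisons, 78.6% of those of the first and 82.5% of those of the second. Called only without C-peptide were SLCO3A1, ABCC5, SLC22A18, SLC22A3 and SLC22A5. SLC22A17, at 0.37, was among those that passed only with it. Its call was lost in 3 of 15 alternatives, namely without the filter on detection, without C-peptide replicate 3 (0.29, adjusted p = 0.105, limma) and without replicate 3 of both agents (0.18, adjusted p = 0.184, limma).

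ABCB1 measured 7.75, 7.53 and 7.69 with both agents, against 9.85, 10.07 and 10.08 with C-peptide alone, and fell by 2.35 (SE 0.13). ABCC4 measured 8.04, 8.24 and 7.72 with both agents, against 9.31, 9.31 and 9.30 with C-peptide, and fell by 1.31 (SE 0.11). ABCA1 measured 12.66, 12.58 and 12.56 with both agents, against 11.38, 11.41 and 11.37 with C-peptide, and rose by 1.22 (SE 0.10). In these 3 genes, as in SLCO2A1, the groups were as fully separated as without C-peptide. SLC22A4 rose by 1.34, ABCE1 by 0.61, ABCB8 by 0.56, ABCB6 by 0.52 and ABCF2 by 0.29. ABCC3 fell by 1.04, SLCO4C1 by 0.77, ABCA7 by 0.70, SLC22A15 by 0.57, ABCC1 by 0.44 and SLC22A18AS by 0.31. The ABCF2 call was lost in 3 of 15 alternatives (adjusted p up to 0.0889, limma), and its second kept row, at 0.18, did not pass (adjusted p = 0.259, limma over all kept probes). The SLC22A18AS call was lost in 5 of 15 (adjusted p up to 0.159, limma).

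The interaction, which asks whether C-peptide altered the TGF-beta1 change, was called for 0 of 38 members (0% of all genes; limma, lowest adjusted p = 0.999). At an unadjusted p under 0.05 there were 2. One was ABCA10, at -0.39 (SE 0.19), which was detected on 1 of 3 controls. The other was SLC22A3, for which no value is given because 0 of 3 arrays detected it in either group with TGF-beta1. The estimates of the 35 members detected on at least 1 array of each of the 4 groups ran from -0.45 to 0.32.

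**Figure D3:**
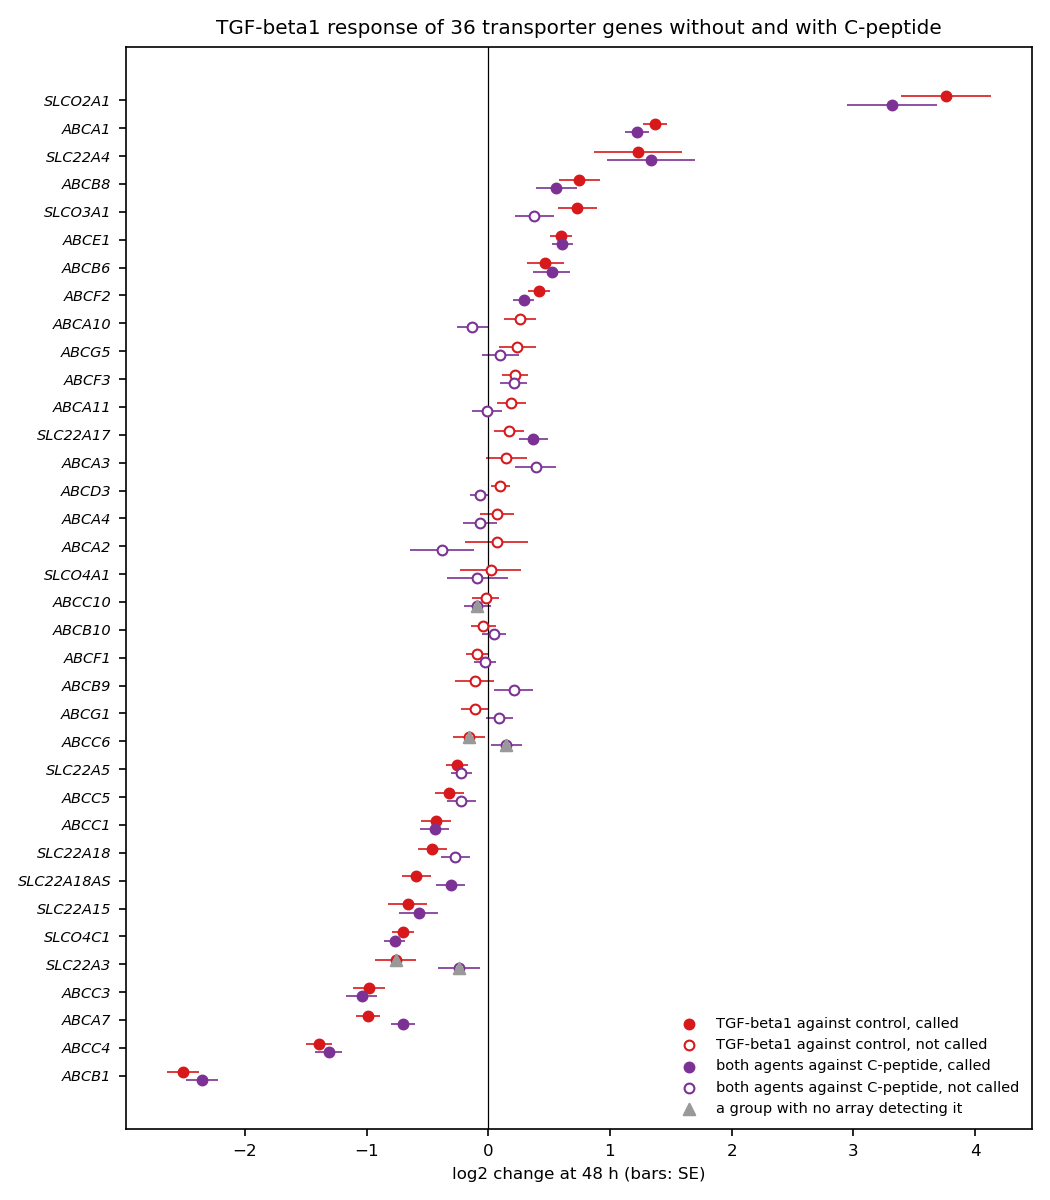
Change at 48 h (log2, horizontal axis) of 36 of the 38 tested transporter genes for TGF-beta1 against control (red) and for both agents against C-peptide (purple), with bars of 1 SE, filled points for called genes, and grey triangles where no array of a group detected the gene. SLCO2A1 is highest at 3.76 and 3.32 and ABCB1 lowest at -2.51 and -2.35, and all 20 genes called without C-peptide keep their sign with it.

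Both agents together against the 48 h control gave 8 higher and 12 lower members (54% of all genes were called, 25.7% higher and 28.3% lower). The control arrays are those of the TGF-beta1 comparison, so the values are given side by side only. The ABCB1 change was -2.96 with both agents and -2.51 with TGF-beta1 alone, that of ABCC3 -1.36 with both and -0.98 with TGF-beta1, and that of SLCO4C1 -1.0 with both and -0.70 with TGF-beta1. The SLCO2A1 change was 3.32 with both agents and 3.76 with TGF-beta1 alone, and that of ABCA1 1.19 and 1.37 in the same order. ABCC4, ABCA7, ABCC1, ABCC5, SLC22A5 and SLC22A15 also fell with both agents, though the second kept row of ABCC5 gave -0.01 (adjusted p = 0.965, limma over all kept probes), and SLC22A3 was at least 1.12-fold lower. SLC22A4, ABCB8, ABCE1, ABCB6 and SLCO3A1 rose. The ABCB6 call was lost in 4 of 15 alternatives (adjusted p up to 0.115, limma) and the SLCO3A1 call in 5 of 15 (up to 0.102), and the second kept row of SLCO3A1, at 0.34, did not pass (adjusted p = 0.0631, limma over all kept probes). The SLC22A3 call was lost in 3 of 14 alternatives (adjusted p up to 0.0765, limma). No array with both agents detected SLC22A3, so it was bound to differ here too. ABCA10 and ABCF1 passed here, at 0.37 and -0.28, and the call of each was lost in 3 of 15 alternatives. The second kept row of ABCF1 gave -0.54 (adjusted p = 0.00057, limma over all kept probes). ABCB9 did not pass on the row that stands for it, at -0.05, whereas its second row, at -0.36, did (adjusted p = 0.0236, limma over all kept probes). This comparison crosses array sets.

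The sequences before the start sites of 4 genes that carry these results, 2 that rose (ABCA1 and SLC22A4) and 2 that fell (ABCB1 and ABCC4), are shown as RefSeq gives them on GRCh38.p14, 250 bases up to the start, in the direction of the gene. Capitals mark matches on either strand to a CCAAT box (CCAAT), a GC box (GGGCGG), a SMAD-binding element (CAGAC) or a TATA box (TATAAA). Of 35116 promoter windows of this length, 32% held a CCAAT box, 42.6% a GC box, 38% a SMAD element and 10.7% a TATA box. SLCO2A1 is named only. The windows are chr9:104928156-104928405 on the minus strand for ABCA1, chr5:132294144-132294393 on the plus strand for SLC22A4, chr7:87600885-87601134 on the minus strand for ABCB1 and chr13:95301452-95301701 on the minus strand for ABCC4. RefSeq gives ABCB1 a further start, not shown.
ABCA1: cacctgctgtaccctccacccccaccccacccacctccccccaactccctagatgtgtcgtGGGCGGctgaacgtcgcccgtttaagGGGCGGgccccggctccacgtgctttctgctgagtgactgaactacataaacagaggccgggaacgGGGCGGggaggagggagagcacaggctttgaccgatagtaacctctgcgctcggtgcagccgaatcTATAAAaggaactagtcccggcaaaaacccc
SLC22A4: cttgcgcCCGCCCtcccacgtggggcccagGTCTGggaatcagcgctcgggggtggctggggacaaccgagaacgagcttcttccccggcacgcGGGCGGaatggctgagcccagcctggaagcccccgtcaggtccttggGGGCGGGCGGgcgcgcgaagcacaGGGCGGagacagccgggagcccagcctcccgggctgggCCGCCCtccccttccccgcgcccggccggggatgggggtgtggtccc
ABCB1: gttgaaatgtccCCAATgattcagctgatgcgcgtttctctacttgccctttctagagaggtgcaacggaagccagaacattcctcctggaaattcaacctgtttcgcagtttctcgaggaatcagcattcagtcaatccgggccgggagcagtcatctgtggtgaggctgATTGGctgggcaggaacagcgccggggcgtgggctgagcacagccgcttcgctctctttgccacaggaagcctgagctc
ABCC4: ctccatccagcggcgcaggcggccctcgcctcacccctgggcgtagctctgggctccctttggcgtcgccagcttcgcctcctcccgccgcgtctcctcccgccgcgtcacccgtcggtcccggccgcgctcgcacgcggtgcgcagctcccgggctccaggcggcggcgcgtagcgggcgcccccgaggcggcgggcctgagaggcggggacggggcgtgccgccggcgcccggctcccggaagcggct
The ABCA1 window holds 3 GC boxes and a TATA box at -31 to -26. The SLC22A4 window holds 6 GC boxes, 2 of which overlap, and 1 SMAD element. The ABCB1 window holds 2 CCAAT boxes and none of the other motifs, and in the ABCC4 window these letters do not occur. Among members called for TGF-beta1, windows were at hand for 7 of the 8 that rose and 9 of the 12 that fell. The SMAD element occurred in 4 of the 7 and 3 of the 9. In the same order the counts were 4 and 2 for the CCAAT box, 6 and 5 for the GC box, and 1 and 1 for the TATA box. A gene counted if any of its windows held the motif, so these counts are not set against the shares of single windows. These matches describe letters in a window and were not tied to binding.

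With C-peptide alone few members passed, 5.26% at 48 h (5.32% of all genes) and 2.63% at 18 h (2.29% of all genes). At an unadjusted p under 0.05 (limma) there were 6 of 38 members at 48 h, beside 2796 of all 12468 genes. At 18 h there were 10 of 38, beside 3018 of all 12468. At 48 h ABCA10 rose by 0.50 (SE 0.13, adjusted p = 0.0295) and ABCB1 fell by 0.61 (SE 0.13, adjusted p = 0.00685), and 36 of 38 members did not pass (limma; 5.32% of all genes were called, 3.82% higher and 1.5% lower). ABCB1 measured 9.85, 10.07 and 10.08 with C-peptide, against 10.60, 10.40 and 10.84 in the 48 h controls, without overlap. The call was lost without 48 h control replicate 3 (adjusted p = 0.0685, limma) and without C-peptide replicate 1 (adjusted p = 0.0647), and the second kept row of the gene, at -0.39, did not pass (adjusted p = 0.116, fitted over all kept probes). The 48 h controls differed by 0.54 in ABCB1 from the 18 h controls, which measured 9.97, 9.90 and 10.35, and this did not pass (adjusted p = 0.0652). ABCA10, a lipid transporter relative, was near background, at 5.79, 5.52 and 5.93 with C-peptide, against 5.26, 5.14 and 5.33 in controls, where 1 of 3 arrays detected it. Its call was lost in 5 of the 6 fits that left out 1 array (adjusted p from 0.0719 to 0.136, limma) and held without C-peptide replicate 2. Both comparisons lie across array sets and cannot be told apart from them.

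In cells that also received TGF-beta1, 1 member was called for the addition of C-peptide (2.15% of all genes were called, 1.5% higher and 0.65% lower). SLC22A18AS was 0.50 higher with both agents than with TGF-beta1 alone (SE 0.12, adjusted p = 0.03, limma), at 6.76, 7.07 and 6.88 with both agents, against 6.59, 6.39 and 6.23 with TGF-beta1. The groups did not overlap, but the call was lost in 5 of 15 alternatives (adjusted p from 0.00238 to 0.173, limma), among them leaving out TGF-beta1 replicate 2 or 3 (0.137 and 0.12) and replicate 2 or 3 with both agents (0.173 and 0.0705). SLC22A18 itself differed by 0.24 and did not pass. ABCB1 was 0.45 lower and did not pass (adjusted p = 0.0681). This comparison too lies across array sets.

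At 18 h, within an array set, ABCE1 was the member called (2.29% of all genes were called, 1.15% higher and 1.15% lower). It measured 9.78, 9.56 and 9.79 with C-peptide, against 9.21, 9.21 and 9.41 in the 18 h controls, a rise of 0.43 (SE 0.09, adjusted p = 0.0338, limma). The adjusted p was 0.0556 without C-peptide replicate 3, 0.224 and 0.14 without 18 h control replicates 1 and 2, and 0.365 when only the 6 arrays compared were fitted. With all arrays the second kept row of ABCE1 gave 0.32 (adjusted p = 0.0443, limma over all kept probes). The 37 others differed by -0.33 to 0.65.

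C-peptide 18 h replicate 3 lay high for several carriers. For SLCO2A1 the C-peptide arrays read 8.80, 8.73 and 11.14, against 9.04, 8.72 and 8.96 in controls, so that the change was 0.65 with all arrays and -0.14 without replicate 3. SLC22A4 read 5.35, 5.89 and 7.80 with C-peptide, against 5.95, 5.89 and 6.02 in controls, with a change of 0.39 and -0.33. SLCO4A1 read 7.72, 7.36 and 8.89 with C-peptide, against 7.34, 7.38 and 7.67 in controls, with a change of 0.53 and 0.08. In all 3 the change with all arrays did not pass, and replicate 3 alone lay high. On this array 17 of 38 members lay above the other 5 arrays at 18 h (26.2% of all genes) and 7 lay above them by more than 0.5 on the log2 scale (3.14% of all genes), while 7 lay below them (29.8% of all genes) and 1, SLC22A3 at 4.83, by more than 0.5 (3.22% of all genes). The median change of the members was 0.06 with this array and 0.01 without it.

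The C-peptide change at 48 h minus that at 18 h was called for 2 members (8.92% of all genes were called, 4.25% higher and 4.67% lower), ABCB1 at -0.93 (SE 0.18) and ABCE1 at -0.43 (SE 0.12), both lower. For ABCB1 the change was -0.61 at 48 h and 0.32 at 18 h. The 48 h controls against the 18 h controls gave 0 of 38 calls (0.00802% of all genes were called), 8 at an unadjusted p under 0.05 and a range from -0.39 to 0.54.

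**Figure D4:**
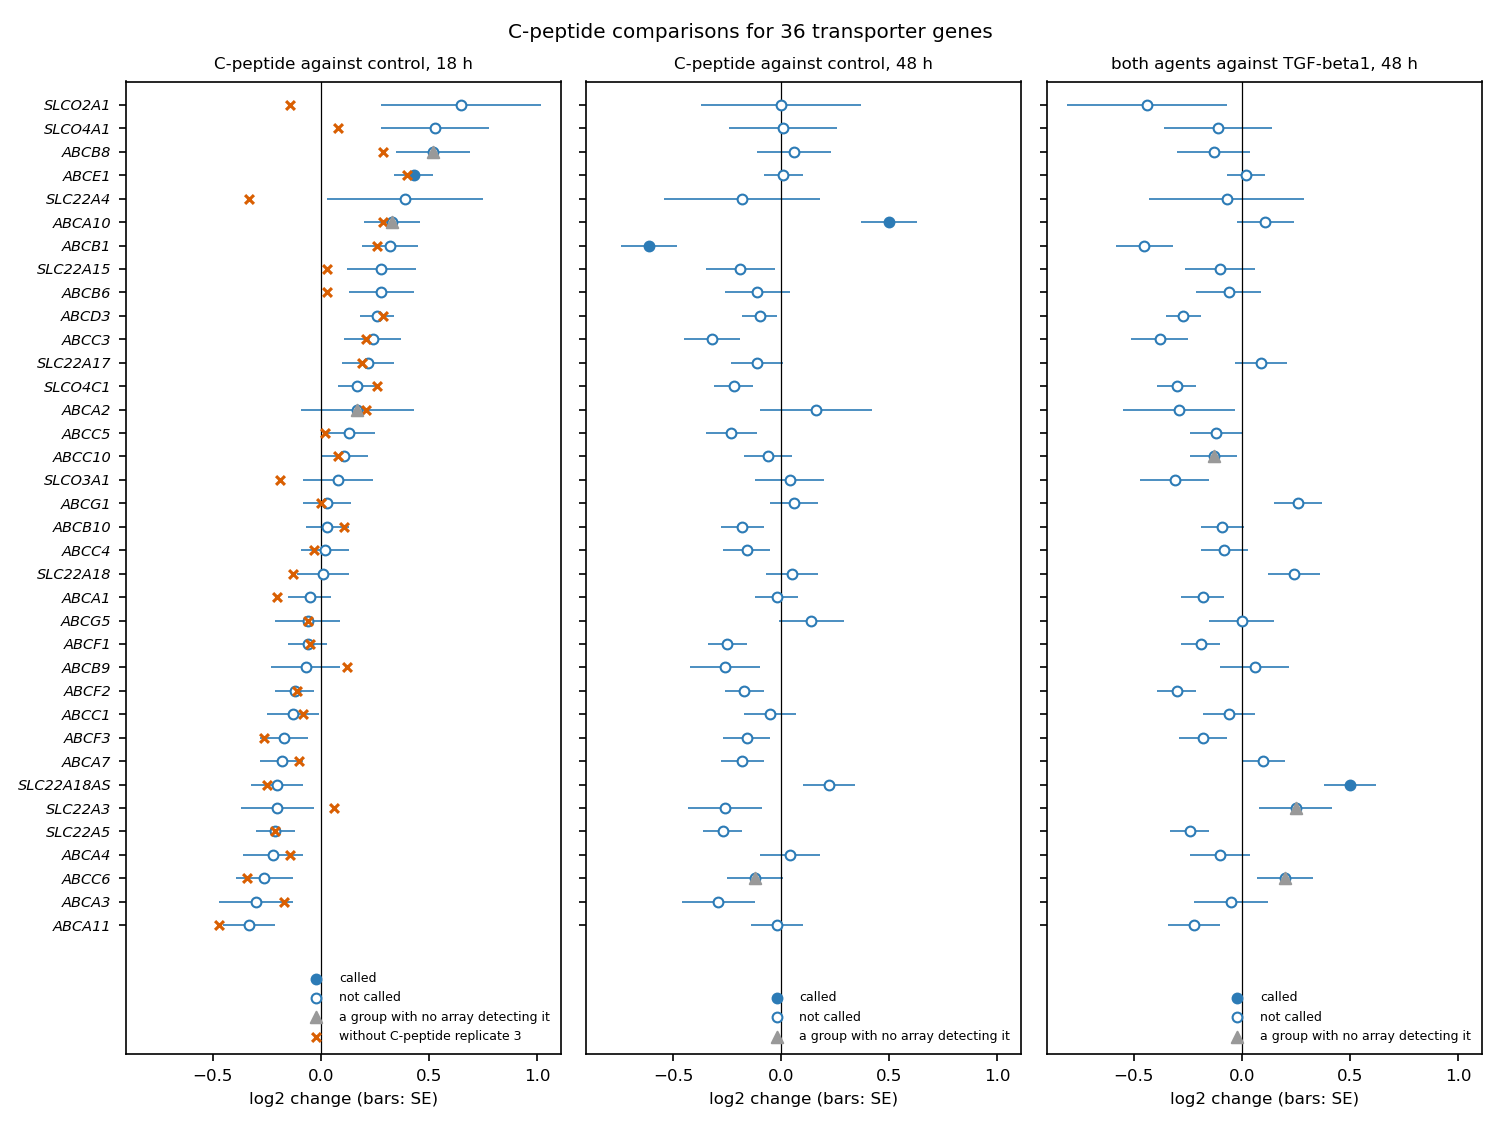
Change (log2, horizontal axis) of 36 of the 38 tested transporter genes for C-peptide at 18 h, C-peptide at 48 h, and both agents against TGF-beta1, with bars of 1 SE, filled points for called genes, grey triangles where no array of a group detected the gene, and orange crosses for the 18 h change without C-peptide replicate 3. ABCE1, ABCA10, ABCB1 and SLC22A18AS are the called genes, and the 18 h change of SLCO2A1 is 0.65 with replicate 3 and -0.14 without it.

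Genes that work with these transporters were followed through 4 lists, to be read beside the 21.9% of all genes that were higher and the 23.2% that were lower with TGF-beta1. Of 22 tested genes of glutathione synthesis and conjugation, which make substrates for the ABCC pumps, 3 rose and 11 fell with TGF-beta1 (median -0.28, against -0.01 over all genes). The sulfotransferase SULT1C2 fell by 1.43 and the glutathione transferases GSTA4, MGST1 and GSTT1 by 1.1, 0.87 and 0.69. Of 17 transcriptional regulators of transporters 2 rose and 7 fell (median -0.08). The bile acid receptor NR1H4 (FXR) fell by 2.28, the oxysterol receptor NR1H3 (LXR alpha), a regulator of ABCA1, by 0.73, the factor HNF4G by 0.72 and the partner receptor RXRA by 0.69.

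Of 13 scaffolds and partners of transporters 1 rose and 7 fell (median -0.63). PDZK1, which anchors apical carriers, fell by 2.06, its partner PDZK1IP1 fell by 2.21, the ubiquitin ligase NEDD4L fell by 1.87 and the kinase PRKCA fell by 1.27. Of 10 tested carriers of nucleosides, drugs, peptides and monocarboxylates 3 rose and 3 fell (median -0.02). The nucleoside carrier SLC29A1 rose by 2.48 and the lactate exporter SLC16A3 by 0.77, while the urate and anion carrier SLC17A3 fell by 2.17 and the monoamine carrier SLC29A4 by 0.82. With C-peptide few passed. EPHX1, an epoxide hydrolase, was 0.42 higher at 48 h. It was the 1 call among 22 tested genes of its list (5.32% of all genes were called). At 18 h GSTK1 fell by 0.37, NFE2L2 (NRF2), a regulator of antioxidant genes, was 0.49 higher and the sodium pump subunit ATP1B1 was 0.41 higher. Each was the 1 call of its list, of 22, 17 and 13 tested genes in this order (2.29% of all genes). These 18 h values include C-peptide replicate 3, and no value without it is given. KEAP1, the inhibitor of NRF2, fell by 0.38 when C-peptide was added to TGF-beta1, 1 of 17 tested genes (2.15% of all genes). The EPHX1 and KEAP1 comparisons lie across array sets.

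Markers of cell types moved with the TGF-beta1 comparison. Of 10 tested proximal tubule markers 2 rose and 6 fell, and their summed signal was 2197 to 2622 with TGF-beta1, against 4473 to 4894 in the 48 h controls. PDZK1 belongs to this list as well as to the scaffolds. Both tested distal nephron markers of 9 fell, with sums of 53 to 60 with TGF-beta1, against 294 to 318 in controls. The sums with TGF-beta1 are near background. Of 4 tested fibroblast markers of 7, 2 rose and 2 did not pass, with sums of 1966 to 2210 with TGF-beta1, against 1866 to 2019 in controls, and COL1A2, COL3A1 and THY1 were not detected. PECAM1, the 1 tested endothelial marker of 5, rose by 0.56 at a dim signal, 43 to 53 with TGF-beta1, against 30 to 36 in controls. CDH5, VWF, KDR and TIE1 were not detected. CSF1R, the 1 tested leukocyte marker of 5, read 132 to 199 with TGF-beta1, against 22 to 24 in controls. It was near background in every group without TGF-beta1, so it was bound to differ and is given no fold. PTPRC, CD14 and CD3E were not detected. The part of these markers in the transporter changes was not tested.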

How the data were processed

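The deposited table of unnormalized values holds mean bead intensity per probe from GenomeStudio 1.1.1, per the file headers, with no normalization. Values below 0 on 23.4% to 28.1% of the rows of an array show that a background level had been subtracted. The detection column, as deposited, gives a fraction (1 minus detection p), and the deposited bead numbers are a count per probe (median 40 to 42). Normalized intensity made by the authors, linear in scale, was used as an alternative. The submitters' processing notes also name BeadStudio.

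Intensities were corrected and normalized with neqc (limma 3.58.1, R 4.3.3; offset 16, quantile, log2). Probes with a detection p under 0.01 on at least 3 arrays were kept (16322), the brightest probe stood for its gene, and 12468 genes were tested. One model with 6 group means was fitted to the 18 arrays (12 residual degrees of freedom, eBayes with trend), and genes with a Benjamini-Hochberg adjusted p under 0.05 were called. P-values are two-sided. Levels of different probes were not set against each other. Alternatives were another background correction, median scaling, the authors' values, no detection filter, probes detected on all 3 arrays of a group, the mean of the probes of a gene, array weights, only the groups compared, a replicate block and leaving out each array. Replicate numbers are shared only as numbers: correlations of same-numbered arrays ran from -0.34 to 0.28.

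Every member with a kept probe was counted and called members were named. From 4 companion lists the 4 largest called changes for TGF-beta1, and all calls for C-peptide, were named. Members and lists were chosen with earlier results of these data known. Groups follow the sample titles. The treatment protocol names TGF-b1, whereas the descriptions of TGF-beta1 replicates 2 and 3 name TGF-b2 and TGF-b3. Some members entered the fits and counts but are not reported here by name or drawn.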

Additional observations from a re-analysis of the deposited data

Results flagged for a closer look

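The change with C-peptide at 48 h minus that at 18 h differed from 0 for 2 transporter genes. For ABCB1 it was -0.93 on the log2 scale (SE 0.18, adjusted p = 0.00958, limma), and the call held in all 21 alternatives (adjusted p from 0.000348 to 0.0451). The second kept row of ABCB1 gave -0.74 (adjusted p = 0.0329). For ABCE1 it was -0.43 (SE 0.12, adjusted p = 0.0402), and the call was lost in 11 of 21 alternatives (adjusted p from 0.0115 to 0.11). The second kept row of ABCE1 gave -0.53 (adjusted p = 0.0132, limma over all kept probes). The 48 h side of this difference crosses array sets and cannot be told apart from them.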

How the results depend on the processing

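Of the calls named, 17 of 20 for TGF-beta1, 14 of 20 for both agents against control, 13 of 17 for both agents against C-peptide, 1 of 2 for the difference between C-peptide changes, and 0 of 2 (C-peptide, 48 h), 0 of 1 (C-peptide, 18 h) and 0 of 1 (both against TGF-beta1) held in every alternative that tested the gene, and 0 were reversed. Leaving out 1 array gave 17 to 20 called members for TGF-beta1, 0 to 2 for C-peptide at 48 h, 0 to 6 for C-peptide at 18 h, 15 to 19 for both agents against control, 0 to 1 against TGF-beta1, 14 to 16 against C-peptide, 0 to 0 for the interaction, 1 to 7 for the difference between C-peptide changes and 0 to 5 for the controls. The highest of these for C-peptide at 18 h, the difference and the controls (6, 7 and 5) came without 18 h control replicate 3. C-peptide at 18 h gave 4 without C-peptide replicate 1, and 0 without its replicate 3 or 18 h control replicate 1 or 2, and C-peptide at 48 h gave 0 without 48 h control replicate 3 or C-peptide replicate 1. Array weights gave 7 called members for C-peptide at 48 h, 3 at 18 h, 7 for both agents against TGF-beta1, 8 for the difference and 9 for the controls. Without the detection filter C-peptide at 18 h gave 0, both agents against TGF-beta1 0 and the difference 1. With only the groups compared the counts were 0 for C-peptide at 18 h, 5 for both agents against TGF-beta1, 1 for the difference and 1 for the controls. Median scaling gave 2 for both agents against TGF-beta1 and 1 for the controls, and the mean of the probes gave 2 and, for the difference, 4. The replicate block gave 1 for the controls, against 0 without it, and moved no other count by over 1.5 times. The causes were not tested. An array-set block was not run, because each group lies in a single set. Dim genes such as SLC22A3, ABCA10 and ABCC1 are limited by signal over background.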
